A study of Mus musculus with 6 samples.

Results

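The 38 genes described here encode proteins of the lysosome, among them the cathepsins and other hydrolases that work inside it, its membrane proteins and proton pump subunits, and 3 transcription factors that control such genes. They were chosen by name, from what their proteins do, out of the 55573 gene identifiers in the RNA-Seq count table. Earlier results of these data were known when the members and the lists set beside them were chosen. All 38 members were found in the table and passed the filter on low counts. The libraries came from retinal cells of adult C57BL/6J mice (6 to 10 weeks old and of both sexes, per the study's methods) that had received an adeno-associated virus, AAV2-*GFP* in the control group and AAV2-*Ezh2* in the *Ezh2* overexpression group, in the vitreous body. In every group the optic nerve was crushed 2 weeks later, and 3 days after the crush dissociated cells stained for CD90.2 (encoded by *Thy1*) and free of a dead cell dye were sorted to enrich retinal ganglion cells (RGCs), so an uninjured group was not part of these libraries. There were 3 libraries per group. The labels do not say that the libraries came from separate animals, so p values measure the spread between these samples, and how many animals were pooled is not known here. The viral *Ezh2* is a transgene, AAV2 given in the eye is known to reach RGCs mainly but not them alone, and reads from the transgene and from the mouse gene were not told apart.

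Lysosomes break down proteins, sugars, lipids and whole cell fragments in an acid lumen. A proton pump, the V-ATPase, keeps the lumen acid, and hydrolases do the cutting. Membrane proteins such as LAMP1 line the wall, and other membrane proteins export the products. The transcription factors TFEB, TFE3 and MITF bind a short DNA element, the E-box CACGTG, near the start of many lysosome genes. Most cells carry lysosomes, and phagocytes such as microglia and macrophages are known for particularly high levels of several of the members, among them *Ctss*, *Cd68* and *Laptm5*.

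Promoter sequence is shown first, because the E-box is known from the promoters of many, but not all, lysosome genes. RefSeq windows of 300 bases (250 before and 50 after a gene's start, build GRCm38.p6) were found for 32 of the 38 members. Some had several starts, which made 40 windows, and a gene was counted when any of its windows held the letters. The remaining 6, *Asah1*, *Atp6v0d2*, *Atp6v1h*, *Ctsb*, *Ctsh* and *Npc1*, had no entry. The letters CACGTG, which read the same on both strands, occurred in 10 of the 32 members (31.2%), in 21 of 72 other lysosome genes (29.2%) and in 2187 of all 27025 genes with a window (8.09%). The longer form TCACGTGA, which contains CACGTG and also reads the same on both strands, occurred in 4 members (12.5%), in 10 other lysosome genes (13.9%) and in 304 of all genes (1.12%). The 4 members with the longer box were *Atp6v0d1*, *Ctsa*, *Ctsd* and *Mcoln1*, and 30 bases around it are printed below, 5′ to 3′ on the gene's strand, with the longer box in capitals.
Ctsa (chr2:164833757-164833786, plus strand): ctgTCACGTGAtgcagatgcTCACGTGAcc
Ctsd (chr7:142387908-142387937, minus strand): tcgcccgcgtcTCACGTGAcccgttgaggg
Mcoln1 (chr8:3500462-3500491, plus strand): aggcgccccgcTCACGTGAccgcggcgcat
Atp6v0d1 (chr8:105566050-105566079, minus strand): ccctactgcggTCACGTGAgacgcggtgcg

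*Lamp1* held 4 E-boxes of the shorter form, more than any other member, all within the 100 bases before its start. These 100 bases are shown with each CACGTG in capitals, beside the same stretch of *Lipa* and *Cd68*, whose windows held none.
Lamp1 (chr8:13159061-13159160, plus strand): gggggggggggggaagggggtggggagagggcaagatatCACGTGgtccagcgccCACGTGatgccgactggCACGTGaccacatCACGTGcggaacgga
Lipa (chr19:34527475-34527574, minus strand): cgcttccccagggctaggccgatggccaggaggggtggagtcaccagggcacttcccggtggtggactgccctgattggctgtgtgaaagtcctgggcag
Cd68 (chr11:69666171-69666270, minus strand): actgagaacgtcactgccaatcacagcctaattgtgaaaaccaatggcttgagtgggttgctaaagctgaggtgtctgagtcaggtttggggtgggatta

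In all, 16 E-boxes were found in member windows, and 13 of them lay within 100 bases of the start. Besides *Lamp1*, more than 1 box was held by *Ctsa*, *Ctsd* and *Mcoln1*. The other genes with a box were *Atp6v0d1*, *Ctsf*, *Ctsl*, *Gaa*, *Glb1* and *Lgmn*. For *Ctsa* and *Lgmn* the boxes lay in a window at a start inside the gene, and the window at the outer start held none. A match describes these letters in this window only.

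**Figure D1:**
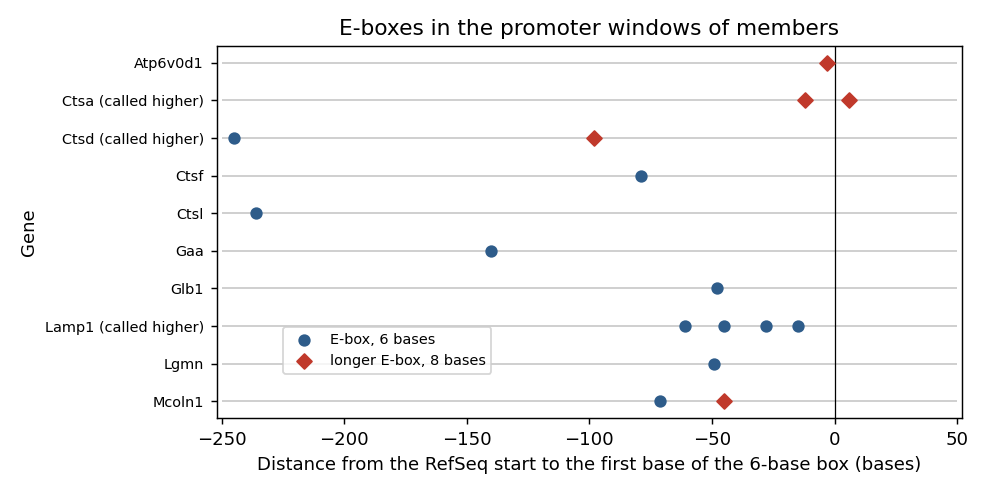
Position of each E-box (circles, 6 bases, and diamonds, the longer form of 8 bases) in the promoter windows of the 10 members that held one, as the distance in bases from the RefSeq start. Of the 16 boxes, 13 lie within 100 bases of the start, and *Lamp1* holds 4 in a row.

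The libraries held 30569933 to 35971192 counts, so that 3 counts, the level which a count of 0 still allows, equalled 0.0834 to 0.0981 CPM, the counts scaled by the total of their library. Such floors cover counting error only. The overexpressed gene checked the labels. *Ezh2* stood at 28.8, 34.6 and 33.0 CPM in GFP replicates 1 to 3 and at 78.0, 65.3 and 104.8 CPM in Ezh2 replicates 1 to 3, a log2 fold change of 1.17 ± 0.08 (SE, edgeR adjusted p = 2.97e-11) in the 5 libraries compared below and of 1.41 ± 0.19 (SE, adjusted p = 0.0122) in all 6. Ezh2 replicate 3 stood apart from the rest of its group, with a correlation of log2 CPM across genes of 0.972 and 0.971 with Ezh2 replicates 1 and 2, against 0.988 between those. The study left 1 Ezh2 library out, by inference replicate 3, so the main comparison below used 5 libraries, and values for all 6 are set beside those of the members. The cells are labelled RGCs, yet the RGC gene *Pou4f2* lay between 0 and 0.0932 CPM and *Rbpms* between 16.4 and 20.8 CPM. *Thy1*, the gene of the sort marker, lay higher, between 87.2 and 113.8 CPM. *Glul*, a Müller glia gene, lay between 5446 and 9900 CPM and the myeloid gene *Csf1r* between 447 and 615 CPM. Summed over the marker lists used below, RGC genes came to 172 to 206 CPM. Microglia genes came to 2010 to 2930 CPM and Müller glia genes to 13940 to 21830 CPM. The levels below therefore belong to a mixture of cells, and in such bulk samples a change in the number of cells of a type and a change in RNA per cell cannot be told apart.

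To ask how the lysosome genes as a group stood after *Ezh2* overexpression, calls were counted. A gene was called when its adjusted p (quasi-likelihood test of edgeR, Benjamini-Hochberg over all tested genes) was under 0.05 and its fold change above 1.5. In the 5 libraries 9 of the 38 members were called higher, where 2.52% of the 20241 tested genes were called higher. They were the proteases *Ctsb*, *Ctsd* and *Ctsa*, the hexosaminidase subunit *Hexa*, the acid lipase *Lipa*, the saposin precursor *Psap*, the membrane proteins *Lamp1* and *Cd68* and the pump subunit *Atp6v0d2*. With edgeR, 0 members were called lower in the 5 libraries (1.28% of all tested genes) and 0 in all 6 (0.902%), 1 member was lower at an unadjusted p under 0.05 in the 5 libraries, and DESeq2 and limma-voom likewise called 0 lower. At the adjusted p alone, with no fold threshold, 24 members were higher (10.1% of tested genes) and 1, *Ctsf*, was lower (7.68%). The other 13 members passed neither rule. The median log2 fold change was 0.36 over members and -0.01 over all tested genes, and 32 of 38 values were positive.

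In all 6 libraries 8 members were called higher, where 1.62% of 19732 tested genes were called higher, and these were the same genes without *Lamp1*. At the adjusted p alone, 14 members were higher (3.08% of tested genes) and *Ctsf* was lower (2.7%). The members' median log2 fold change was then 0.28. The calls of *Ctsb*, *Ctsd*, *Lipa* and *Cd68* held under all 20 alternatives tried. Leaving 1 library out of the 5 gave 8 or 9 called members, the lost call being *Lamp1* without Ezh2 replicate 2 (log2 fold change 0.50). Leaving 1 out of the 6 gave 4 without GFP replicate 1, 6 without GFP replicate 2, 4 without GFP replicate 3, 9 without Ezh2 replicate 1 and 5 without Ezh2 replicate 2. Of the 8 genes called in all 6, *Hexa* and *Psap* each lost the call without GFP replicate 1, 2 or 3 or Ezh2 replicate 2. *Ctsa* lost it without GFP replicate 1 or 3 or Ezh2 replicate 2, and *Atp6v0d2* without GFP replicate 1 or 3. These lost calls had log2 fold changes from 0.52 for *Hexa* to 3.38 for *Atp6v0d2* and edgeR adjusted p from 0.00676 to 0.108. *Lamp1*, not called in all 6, was called there only without Ezh2 replicate 1. CPM values of the groups did not overlap for 28 members with Ezh2 higher (21.5% of tested genes) and 3 with Ezh2 lower (23.4%) in the 5 libraries, and for 16 members with Ezh2 higher (14.9%) and 2 with Ezh2 lower (19.3%) in all 6.

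**Figure D2:**
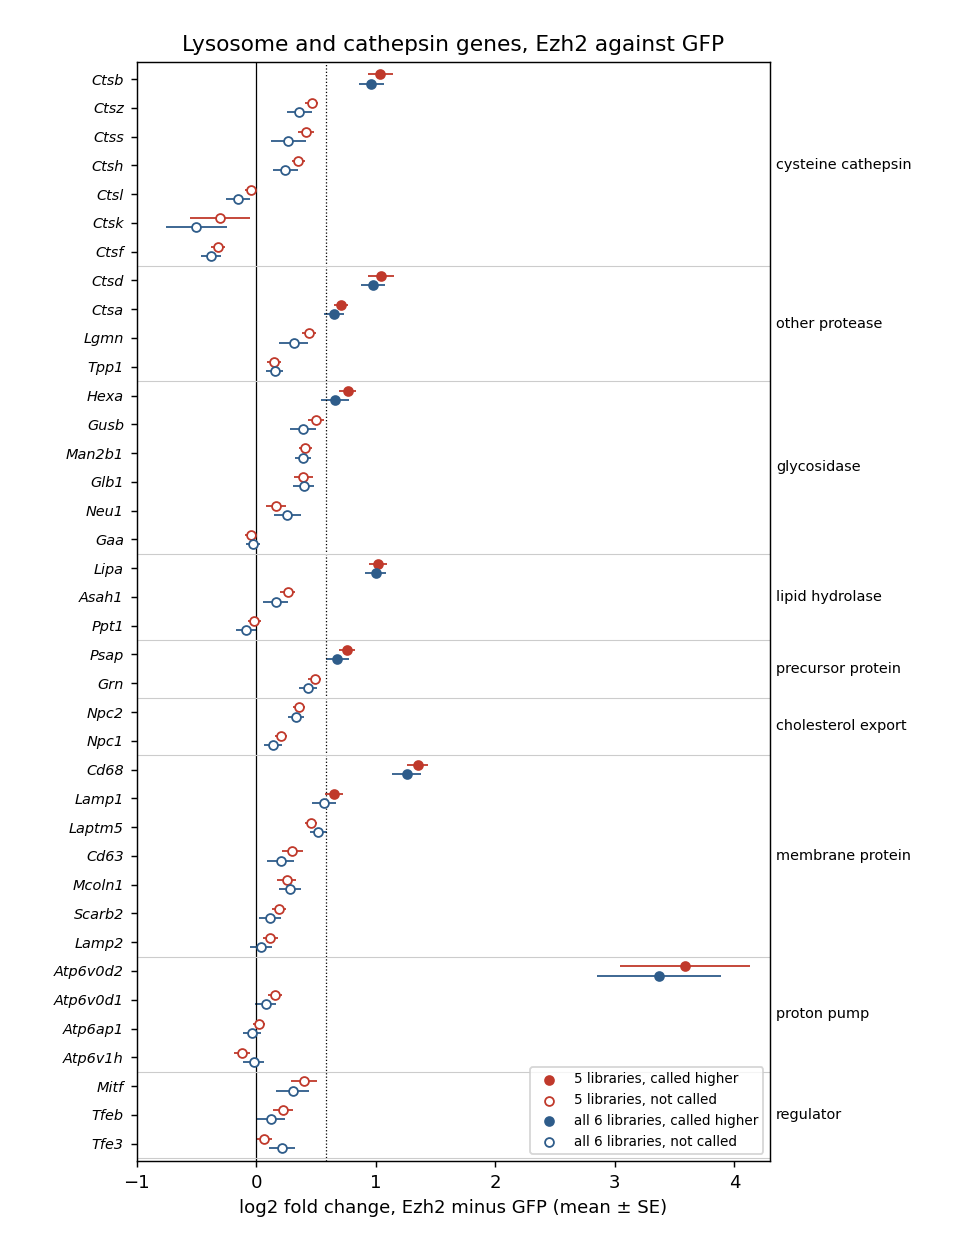
Log2 fold change (Ezh2 minus GFP, ± SE, x axis) of the 38 members (y axis) ordered by role, in the 5 libraries (red) and in all 6 libraries (blue). Filled points were called higher, the dotted line marks a fold change of 1.5, and 9 points are filled for the 5 libraries and 8 for all 6.

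Members were next compared by level. As CPM per kilobase of exon, *Psap* (696) and *Ctss* (679) had the highest GFP means, followed by *Ctsd* (221), *Ctsz* (170), *Ctsb* (149) and *Lgmn* (145). In Ezh2 replicates 1 and 2 the means on this scale were 1169 for *Psap*, 900 for *Ctss*, 452 for *Ctsd*, 304 for *Ctsb*, 232 for *Ctsz* and 195 for *Lgmn*, so *Ctsb* stood above *Ctsz* there. *Cd68* moved from place 22 to place 11 in this order, the lowest place in both groups was held by *Atp6v0d2*, and the next lowest by *Ctsk*. Together the 38 members took 0.966%, 0.972% and 0.927% of all counts in GFP replicates 1 to 3, and 1.29%, 1.5% and 1.12% in Ezh2 replicates 1 to 3. All 3 Ezh2 shares were above the GFP shares.

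Cysteine cathepsins cut proteins in the lysosome. Of the 7 members of this kind, *Ctsb* was called higher, *Ctsh*, *Ctss* and *Ctsz* passed at the adjusted p alone, *Ctsf* was lower at the adjusted p alone, and *Ctsk* and *Ctsl* passed neither rule. *Ctsb* (ENSMUSG00000021939, chromosome 14, 63122462 to 63145923, plus strand, GRCm38), which encodes cathepsin B, stood at 902, 919 and 888 CPM in GFP replicates 1 to 3 and at 1626, 2053 and 1473 CPM in Ezh2 replicates 1 to 3. All 3 Ezh2 libraries lay above all GFP libraries, replicate 2 being highest. *Ctsb* had a log2 fold change of 1.04 ± 0.10 (SE, edgeR adjusted p = 0.000708) in the 5 libraries and 0.96 ± 0.10 (SE, adjusted p = 0.00215) in all 6. *Ctsb* exons overlap those of the antisense gene *Fdft1*, which lay between 28.6 and 31.2 CPM in all 6 libraries.

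*Ctss* encodes cathepsin S, a protease of antigen-presenting cells. It stood at 969, 960.2 and 838 CPM in GFP replicates 1 to 3 and at 1159, 1286 and 813 CPM in Ezh2 replicates 1 to 3, so the first pair of Ezh2 libraries lay above the GFP libraries and replicate 3 below them. The log2 fold change was 0.42 ± 0.06 (SE, edgeR adjusted p = 9.49e-05) in the 5 libraries and 0.27 (adjusted p = 0.304) in all 6. *Ctsz*, a carboxypeptidase, followed the same course, with 246, 253 and 233 CPM in the GFP libraries and 315, 354 and 249 CPM in the Ezh2 libraries. Replicate 3 lay within the GFP range here. *Ctsz* had a log2 fold change of 0.46 (edgeR adjusted p = 5.66e-07) in the 5 libraries and 0.36 (adjusted p = 0.0821) in all 6.

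*Ctsh*, an aminopeptidase, gave 204, 212 and 206 CPM in the GFP libraries and 246, 279.9 and 194 CPM in the Ezh2 libraries, with replicate 3 again below the GFP range. Its log2 fold change was 0.35 (edgeR adjusted p = 2.79e-05) in the 5 libraries and 0.24 (adjusted p = 0.198) in all 6. *Ctsf*, which encodes cathepsin F, went the other way. It stood at 121, 108 and 120.5 CPM in the GFP libraries and at 92.3, 93.2 and 77.4 CPM in the Ezh2 libraries, all 3 below the lowest GFP value. The log2 fold change of *Ctsf* was -0.32 ± 0.06 (SE, edgeR adjusted p = 0.000142) in the 5 libraries and -0.38 ± 0.08 (SE, adjusted p = 0.0308) in all 6, short of a fold change of 1.5 in both. *Ctsl*, one of the broadly expressed cathepsins, had a log2 fold change of -0.04 (adjusted p = 0.661) in the 5 libraries and -0.15 (adjusted p = 0.388) in all 6. *Ctsk*, the cathepsin of bone-resorbing osteoclasts, lay at 1.33 to 2.94 CPM with -0.30 (adjusted p = 0.468) and -0.50 (adjusted p = 0.261). The cysteine cathepsins thus spanned from -0.32 to 1.04 in the 5 libraries within 1 enzyme family.

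The relation of *Ctsb* to *Ctss* was followed in single libraries, a pair chosen after its values were seen. The ratio of their counts was 0.931, 0.957 and 1.06 in GFP replicates 1 to 3, and 1.4, 1.6 and 1.81 in Ezh2 replicates 1 to 3. The groups did not overlap, and the highest ratio was that of replicate 3, in which *Ctss* lay below the GFP range.

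The other proteases were *Ctsd*, *Ctsa*, *Lgmn* and *Tpp1*, of which the first pair was called higher in both fits. *Ctsd* (ENSMUSG00000007891, chromosome 7, 142375911 to 142388038, minus strand), the aspartic protease cathepsin D, stood at 514, 535 and 511 CPM in GFP replicates 1 to 3 and at 938, 1186 and 866 CPM in Ezh2 replicates 1 to 3. The Ezh2 values lay well above the GFP values in each library. For *Ctsd* the log2 fold change was 1.04 ± 0.11 (SE, edgeR adjusted p = 0.00133) in the 5 libraries and 0.98 ± 0.10 (SE, adjusted p = 0.0018) in all 6. *Ctsa* (ENSMUSG00000017760, chromosome 2, 164832873 to 164841032, plus strand), the protective protein that keeps other hydrolases stable, stood at 198, 204 and 189 CPM in the GFP libraries and at 298, 342 and 264 CPM in the Ezh2 libraries. Again the groups did not overlap, and the log2 fold change was 0.71 ± 0.06 (SE, edgeR adjusted p = 7.74e-10) in the 5 libraries and 0.65 ± 0.09 (SE, adjusted p = 0.0047) in all 6. *Ctsa* shares 819 bases of exon with the antisense genes *Neurl2* and *Pltp*, and *Pltp* lay at 13.6 to 21.1 CPM in the GFP libraries and at 38.2, 40.4 and 29.3 CPM in Ezh2 replicates 1 to 3. Whether reads were counted by strand is not given in the sources used here, and the part of such reads in the *Ctsa* value was not tested. Both genes hold the longer E-box printed above.

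*Lgmn* encodes legumain, which activates cathepsins by cutting their precursors. It stood at 342, 345 and 322 CPM in the GFP libraries and at 423, 482 and 317 CPM in the Ezh2 libraries, replicate 3 lying just below the GFP range. *Lgmn* had a log2 fold change of 0.44 (edgeR adjusted p = 1.52e-06) in the 5 libraries and 0.31 (adjusted p = 0.173) in all 6. *Tpp1*, a tripeptidyl peptidase, had 0.15 (adjusted p = 0.0682) and 0.16 (adjusted p = 0.209).

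**Figure D3:**
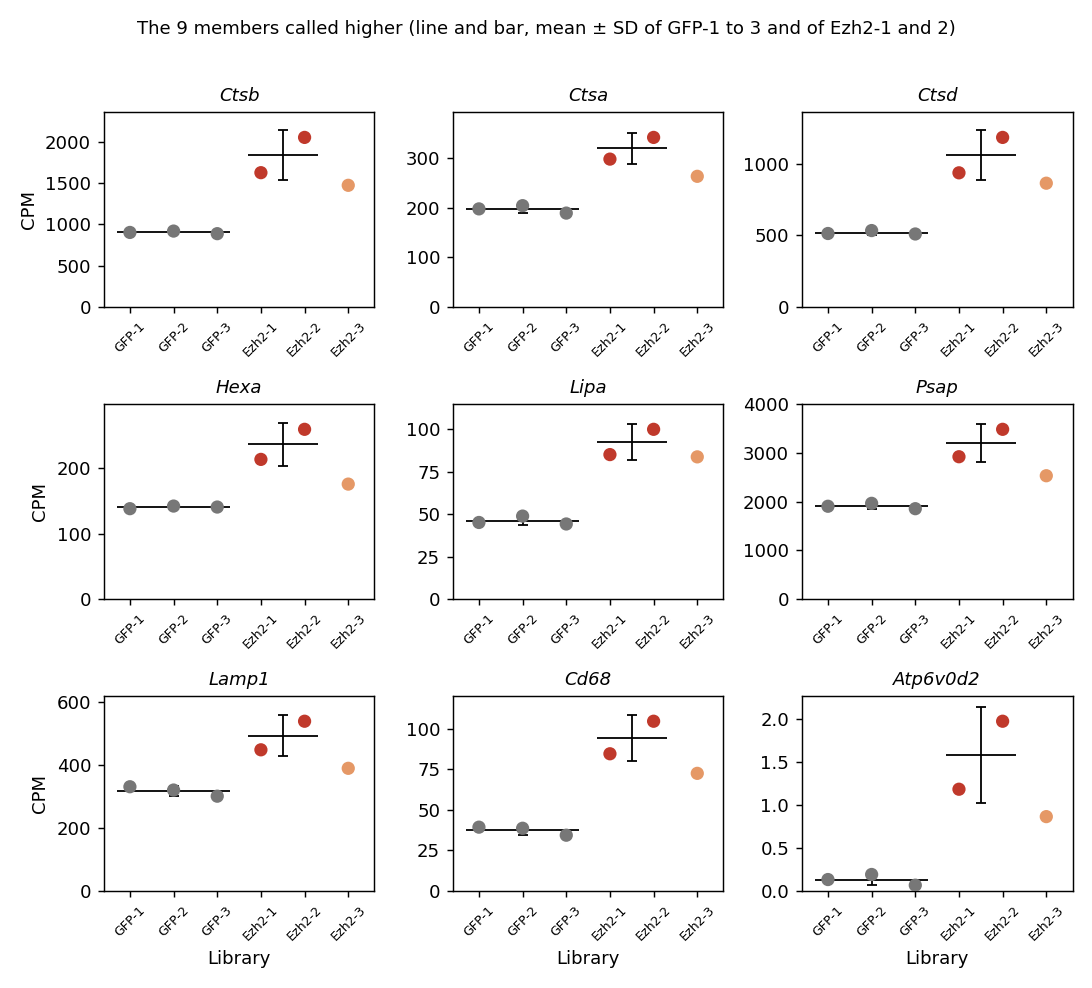
CPM of the 9 members called higher in each library (points, with GFP grey, Ezh2 replicates 1 and 2 red, Ezh2 replicate 3 orange), with y axes from 0 and the mean ± SD of the 3 GFP libraries and of Ezh2 replicates 1 and 2. In each panel Ezh2 replicate 2 is the highest Ezh2 library and replicate 3 the lowest, and all lie above the GFP libraries.

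Of the 6 glycosidases, enzymes that trim sugar chains, *Hexa* was called higher and *Glb1*, *Gusb* and *Man2b1* passed at the adjusted p alone. *Hexa* (ENSMUSG00000025232, chromosome 9, 59539540 to 59565109, plus strand), the alpha subunit of beta-hexosaminidase, stood at 138, 142 and 140.5 CPM in GFP replicates 1 to 3 and at 213, 259 and 176 CPM in Ezh2 replicates 1 to 3. The groups did not overlap, and the log2 fold change was 0.77 ± 0.07 (SE, edgeR adjusted p = 1.02e-06) in the 5 libraries and 0.66 ± 0.11 (SE, adjusted p = 0.016) in all 6.

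*Gusb*, a beta-glucuronidase, gave 62.8, 68.6 and 62.0 CPM in the GFP libraries and 86.4, 94.7 and 66.9 CPM in the Ezh2 libraries, with replicate 3 inside the GFP range. Its log2 fold change was 0.50 (edgeR adjusted p = 8.51e-07) in the 5 libraries and 0.39 (adjusted p = 0.0713) in all 6. *Glb1*, the lysosomal beta-galactosidase, behaved more evenly, at 35.5, 34.9 and 32.1 CPM in the GFP libraries and 42.0, 47.1 and 42.3 CPM in the Ezh2 libraries. *Man2b1*, an alpha-mannosidase, stood at 225, 234 and 212 CPM in the GFP libraries and at 288, 303 and 268 CPM in the Ezh2 libraries. For both, every Ezh2 library exceeded every GFP library, and both passed at the adjusted p alone in both fits, with log2 fold changes of 0.39 (edgeR adjusted p = 0.000512) for *Glb1* and 0.41 (adjusted p = 9.03e-07) for *Man2b1* in the 5 libraries. The glycosidases *Gaa* and *Neu1* had log2 fold changes of -0.04 (adjusted p = 0.64) and 0.17 (adjusted p = 0.173) in the 5 libraries, and of -0.03 (adjusted p = 0.8) and 0.26 (adjusted p = 0.197) in all 6.

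Among the genes for lipid breakdown, *Lipa* (ENSMUSG00000024781, chromosome 19, 34492318 to 34527474, minus strand), the lysosomal acid lipase that frees cholesterol from its esters, stood at 45.1, 48.9 and 44.2 CPM in GFP replicates 1 to 3 and at 85.2, 100.1 and 83.8 CPM in Ezh2 replicates 1 to 3. All 3 Ezh2 libraries lay far above the GFP libraries and close to each other. Its log2 fold change was 1.02 ± 0.07 (SE, edgeR adjusted p = 3e-11) in the 5 libraries and 1.00 ± 0.09 (SE, adjusted p = 0.000728) in all 6. *Asah1*, acid ceramidase, had a log2 fold change of 0.26 (adjusted p = 0.00144) in the 5 libraries but did not pass in all 6, with 0.16 (adjusted p = 0.349), and its value in replicate 3 lay below the GFP range. The thioesterase *Ppt1* had -0.02 (adjusted p = 0.884) and -0.08 (adjusted p = 0.542). Cholesterol leaves the lysosome through NPC2 and NPC1. *Npc2* stood at 275, 284 and 271 CPM in the GFP libraries and at 334, 369 and 315 CPM in the Ezh2 libraries, without overlap, and had a log2 fold change of 0.36 (edgeR adjusted p = 8.15e-06) in the 5 libraries and 0.33 (adjusted p = 0.0232) in all 6. *Npc1* had 0.21 (adjusted p = 0.00405) and 0.14 (adjusted p = 0.293).

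*Psap* (ENSMUSG00000004207, chromosome 10, 60277627 to 60302597, plus strand) encodes prosaposin, the precursor of small proteins that help hydrolases reach lipids. It stood at 1906, 1966 and 1856 CPM in GFP replicates 1 to 3 and at 2925, 3489 and 2534 CPM in Ezh2 replicates 1 to 3. The groups did not overlap, and *Psap* made up 19.7% to 20.2% of the members' counts in the GFP libraries and 22.7% to 23.3% in the Ezh2 libraries. *Psap* had a log2 fold change of 0.76 ± 0.06 (SE, edgeR adjusted p = 5.94e-08) in the 5 libraries and 0.68 ± 0.10 (SE, adjusted p = 0.0073) in all 6. Without *Psap* the other 37 members summed to 7415 to 7756 CPM in the GFP libraries and to 9973, 11470 and 8629 CPM in Ezh2 replicates 1 to 3. *Grn*, which encodes progranulin, a protein cut into granulins in the lysosome, stood at 291, 282 and 268 CPM in the GFP libraries and at 376, 405 and 327 CPM in the Ezh2 libraries. Its groups did not overlap either, and it passed at the adjusted p alone in both fits, with log2 fold changes of 0.49 ± 0.05 (SE, edgeR adjusted p = 4.01e-08) in the 5 libraries and 0.44 ± 0.08 (SE, adjusted p = 0.0143) in all 6.

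*Cd68* and *Lamp1* were called higher among the 7 membrane proteins. *Cd68* (ENSMUSG00000018774, chromosome 11, 69664213 to 69666153, minus strand), a glycoprotein of late endosomes and lysosomes that is widely used as a marker of phagocytes, stood at 39.3, 38.6 and 34.3 CPM in GFP replicates 1 to 3 and at 84.5, 104.6 and 72.5 CPM in Ezh2 replicates 1 to 3. The groups lay far apart in every library. For *Cd68* the log2 fold change was 1.35 ± 0.09 (SE, edgeR adjusted p = 1.14e-08) in the 5 libraries and 1.26 ± 0.12 (SE, adjusted p = 0.0011) in all 6, the largest among the members other than *Atp6v0d2*. *Lamp1* (ENSMUSG00000031447, chromosome 8, 13159161 to 13175338, plus strand), a major protein of the lysosomal wall, stood at 330.0, 320 and 300 CPM in the GFP libraries and at 447, 538 and 388 CPM in the Ezh2 libraries, without overlap. For *Lamp1* the log2 fold change was 0.65 ± 0.08 (SE, edgeR adjusted p = 9.02e-05) in the 5 libraries and 0.57 ± 0.10 (SE, adjusted p = 0.0158) in all 6, where its fold of 1.48 fell short of the threshold. *Lamp2*, its close relative, had 0.12 (adjusted p = 0.211) and 0.04 (adjusted p = 0.8).

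*Laptm5*, a lysosomal membrane protein of blood-derived cells, stood at 271, 285 and 268 CPM in GFP replicates 1 to 3 and at 373, 377 and 398 CPM in Ezh2 replicates 1 to 3. It was 1 of 4 members highest in replicate 3. *Laptm5* had a log2 fold change of 0.46 ± 0.05 (SE, edgeR adjusted p = 4.28e-08) in the 5 libraries and 0.52 ± 0.07 (SE, adjusted p = 0.00487) in all 6. The calcium channel *Mcoln1*, which carries the longer E-box, and *Scarb2*, the receptor that brings glucocerebrosidase to the lysosome, passed at the adjusted p alone in the 5 libraries with log2 fold changes of 0.26 (adjusted p = 0.0253) and 0.19 (adjusted p = 0.0199). Neither passed in all 6, with 0.28 (adjusted p = 0.111) and 0.12 (adjusted p = 0.439). The tetraspanin *Cd63* had a log2 fold change of 0.30 (adjusted p = 0.0506) in the 5 libraries and 0.21 (adjusted p = 0.299) in all 6.

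Subunits of the proton pump spanned the widest range of the roles, from -0.12 to 3.59 on the log2 scale. *Atp6v0d2* (ENSMUSG00000028238, chromosome 4, 19876841 to 19922605, minus strand) encodes a d2 subunit that is known from osteoclasts and macrophages, while *Atp6v0d1* encodes the d1 form found in most cells. The counts of *Atp6v0d2* were 4, 6 and 2 for the GFP libraries against 38, 69 and 31 for the Ezh2 libraries, equal to 0.131, 0.190 and 0.0651 CPM against 1.18, 1.97 and 0.862 CPM. GFP replicate 3 lay under the level of 3 counts, and the groups did not overlap. Pooled over Ezh2 replicates 1 and 2 against the GFP libraries (107 and 12 counts), the CPM ratio was 12.3, with an exact binomial 95% interval of 6.77 to 24.6 that covers counting error only. The fitted log2 fold change was 3.59 ± 0.54 (SE, edgeR adjusted p = 1.14e-05) in the 5 libraries and 3.37 ± 0.52 (SE, adjusted p = 0.00918) in all 6. It was the largest change among members in a gene of very low level. *Atp6v0d1* lay between 67.8 and 88.3 CPM in all libraries and had a log2 fold change of 0.16 (adjusted p = 0.0543) in the 5 libraries and 0.08 (adjusted p = 0.605) in all 6. *Atp6v1h* had -0.12 (adjusted p = 0.222) and -0.02 (adjusted p = 0.905), and *Atp6ap1*, whose sign changed, 0.02 (adjusted p = 0.821) and -0.03 (adjusted p = 0.806).

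The 3 regulators were given whatever their p. *Mitf* stood at 13.3, 13.5 and 12.9 CPM in GFP replicates 1 to 3 and at 15.9, 18.7 and 13.2 CPM in Ezh2 replicates 1 to 3, with replicate 3 within the GFP range. Its log2 fold change was 0.40 ± 0.11 (SE, edgeR adjusted p = 0.0099) in the 5 libraries and 0.31 ± 0.14 (SE, adjusted p = 0.203) in all 6. *Tfeb* stood at 30.3, 32.1 and 35.7 CPM in the GFP libraries and at 39.4, 36.5 and 28.6 CPM in the Ezh2 libraries. Here replicate 3 lay below the GFP range, and the log2 fold change was 0.23 ± 0.08 (SE, edgeR adjusted p = 0.0537) in the 5 libraries and 0.13 (adjusted p = 0.526) in all 6. *Tfe3* stood at 51.6, 51.1 and 51.9 CPM in the GFP libraries and at 54.1, 53.2 and 66.6 CPM in the Ezh2 libraries, the highest value being that of replicate 3. The log2 fold change of *Tfe3* was 0.07 ± 0.07 (SE, edgeR adjusted p = 0.541) in the 5 libraries and 0.22 (adjusted p = 0.267) in all 6. RNA levels say nothing of where these proteins sat in the cell, on which their activity is known to depend.

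E-boxes were set beside the calls as a description. Of the 7 called members with a promoter window, 3 (*Ctsa*, *Ctsd* and *Lamp1*) held CACGTG, and of the 25 members not called 7 did (28%). *Hexa*, *Lipa*, *Psap* and *Cd68* were called higher and held none in this window. Among the members not called, a box was held by *Glb1*, *Lgmn* and *Mcoln1*, which were higher at the adjusted p alone in the 5 libraries. It was also held by *Ctsf*, which was lower at the adjusted p alone, and by *Atp6v0d1*, *Ctsl* and *Gaa*, which passed neither rule.

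Single libraries differed along the whole list. Ezh2 replicate 2 was the highest Ezh2 library for 30 of 38 members and for all 9 called members, and replicate 3 was the lowest for 31 members and again for all 9. In replicate 3 all 9 called members lay above the GFP libraries, whereas of the 15 members higher at the adjusted p alone 6 lay above, 6 below and 3 within the GFP range. Shares of all tested genes were not counted for these orders and ranges, so they describe the members only. The 29 members not called summed to 5309 to 5584 CPM in the GFP libraries, and to 6279, 6883 and 5306 CPM in Ezh2 replicates 1 to 3.

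**Figure D4:**
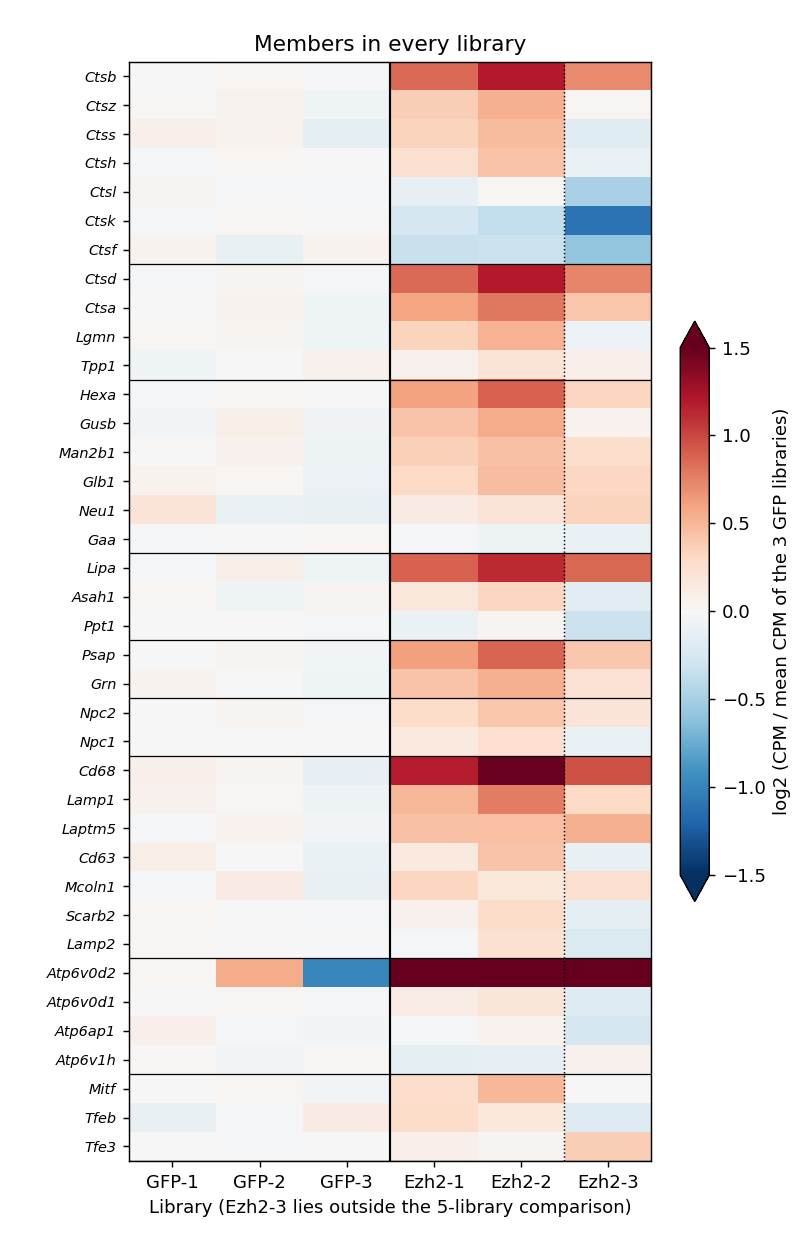
Log2 ratio of each member's CPM to its mean in the 3 GFP libraries (colour) for the 38 members (y axis, by role) in the 6 libraries (x axis). The 9 called members are red in all 3 Ezh2 columns, while 16 members lie below the GFP libraries in Ezh2 replicate 3. The same count over all tested genes was not made. Values beyond 1.5 on the log2 scale are drawn at the end of the colour range.

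The rest of the pathway was taken from a list of 94 other lysosome genes, of which 92 were tested and 2 (*Cpvl* and *Cst6*) were not. In the 5 libraries 7 were called higher (2.52% of all tested genes) and 1 lower (1.28%). At the adjusted p alone 41 were higher (10.1%) and 2, *Lamp5* and *Ctso*, were lower (7.68%). Their median log2 fold change was 0.15. In all 6 libraries 7 were called higher (1.62% of all tested genes) and 1 lower (0.902%), and 16 were higher (3.08%) and 1 lower (2.7%) at the adjusted p alone. By role, at the adjusted p alone, the proteases had 7 of 8 tested genes higher in the 5 libraries and 3 in all 6, where 10.1% and 3.08% of all tested genes were higher. The glycosidases and sulfatases had 9 of 19 and then 3, the lipid hydrolases and their cofactors 5 of 6 and then 3, and the membrane proteins 7 of 19 and then 2. Pump subunits had 5 of 16 and then 1, delivery genes 4 of 6 and then 1, regulators 3 of 15 and then 2, and protease inhibitors 1 of 3 in both.

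*Gpnmb*, a glycoprotein of endosomes and lysosomes in phagocytes and pigment cells, changed most in this list. It stood at 29.7, 38.4 and 30.3 CPM in GFP replicates 1 to 3 and at 409, 537 and 374 CPM in Ezh2 replicates 1 to 3, and its log2 fold change was 3.86 ± 0.22 (SE, edgeR adjusted p = 0.00292) in the 5 libraries and 3.78 (adjusted p = 0.000198) in all 6. The others called higher in the 5 libraries were *Tfec*, a relative of TFEB, at 1.03 on the log2 scale, the folliculin partner *Fnip2* at 0.87, the channel *Mcoln2* at 0.72, *Litaf* at 0.69, the phosphatase *Acp5* at 0.67 and the glucosaminidase *Naglu* at 0.66. Their edgeR adjusted p ranged from 9.22e-11 for *Fnip2* to 0.0388 for *Tfec*, and *Tfec* and *Mcoln2* did not pass in all 6 libraries (adjusted p = 0.0868 and 0.114). *Lamp5*, the LAMP family member of neurons, fell by 0.78 on the log2 scale (edgeR adjusted p = 8.54e-05) in the 5 libraries and by 0.91 (adjusted p = 0.0152) in all 6, from 11.6, 11.7 and 12.2 CPM in the GFP libraries to 6.86, 6.79 and 4.73 CPM in the Ezh2 libraries. Without *Gpnmb* the list summed to 6907 to 7040 CPM in the GFP libraries and to 7535, 8015 and 6746 CPM in Ezh2 replicates 1 to 3.

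Markers of the cells that the sort could hold were set beside the members. Of 12 macrophage markers, 11 of them tested, 7 were called higher in the 5 libraries and 7 in all 6. Of all tested genes 2.52% and 1.62% were called higher. The sum of the list without the very abundant *Apoe* was 310 to 345 CPM in the GFP libraries and 611, 669 and 502 CPM in Ezh2 replicates 1 to 3. Among the called markers were the scavenger receptor *Stab1*, at 55.4, 64.4 and 62.2 CPM against 219, 242 and 207 CPM, and *F13a1*, at 4.38, 3.10 and 2.25 CPM against 16.8, 21.4 and 13.3 CPM. *Ccr2* and *Adgre1* were higher at the adjusted p alone in the 5 libraries, by 0.492 and 0.575 on the log2 scale, and did not pass in all 6. *Ly6c2* (0.115 in the 5 libraries and -0.075 in all 6) and the low *Lyve1* (-0.67 and -0.947) passed neither rule. *Cd163* lay between 0 and 0.389 CPM and was not tested. Of 15 microglia markers 2 (*Fcrls* and *Trem2*) were called higher and 1 (*Sall1*) lower in the 5 libraries, while in all 6 *Fcrls* was called higher, *Sall1* lower and *Trem2* no longer passed (adjusted p = 0.0583). The sum of the list was 2143 to 2365 CPM in the GFP libraries and 2746, 2930 and 2010 CPM in Ezh2 replicates 1 to 3. A further 6 microglia markers (*Aif1*, *C1qa*, *C1qb*, *C1qc*, *Csf1r* and *Cx3cr1*) were higher at the adjusted p alone in the 5 libraries, by 0.26 to 0.52 on the log2 scale, and none of these passed in all 6. The other 6 passed neither rule in the 5 libraries, among them *Tmem119* at 0.04 (adjusted p = 0.713) and *P2ry12* at -0.07 (adjusted p = 0.691), and the median over the list was 0.26 in the 5 libraries and 0.13 in all 6.

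The order of the Ezh2 libraries, replicate 2 above replicate 1 above replicate 3, was the same for the summed members, for the other lysosome genes and for 5 of the 12 marker lists (macrophage, microglia, rod, Müller glia, and endothelial and mural). T cell markers had another order, with sums of 485 to 518 CPM in the GFP libraries and 651, 623 and 1067 CPM in Ezh2 replicates 1 to 3. Müller glia markers summed to 21180 to 21830 CPM in the GFP libraries and to 17370, 17860 and 13940 CPM in the Ezh2 libraries, rod markers to 401 to 471 CPM and to 713, 756 and 423 CPM, cone markers to 28.8 to 29.0 CPM and to 66.7, 58.1 and 38.8 CPM, and RGC markers to 172 to 175 CPM and to 206, 193 and 204 CPM. In the 5 libraries 8 of 8 cone markers, 3 of 8 rod markers and 2 of 11 tested RGC markers were called higher, and in all 6 these numbers were 2, 0 and 3. Of 9 endothelial and mural markers 2 were called higher in the 5 libraries and 1 in all 6. Of 10 T cell markers 1 was called higher in each fit. Of 8 tested amacrine markers 1 was called higher and 1 lower in each fit. No B and plasma cell, bipolar or Müller glia marker was called. A list of 6 genes for an osteoclast-like program, to which *Atp6v0d2* and *Ctsk* also belong in osteoclasts, was set beside the members. Of these 6, *Acp5*, also among the other lysosome genes above, was called higher in the 5 libraries, and *Acp5* and *Nfatc1* in all 6. *Nfatc1* stood at 48.6, 53.4 and 58.4 CPM in the GFP libraries and at 77.3, 67.1 and 90.2 CPM in the Ezh2 libraries, with log2 fold changes of 0.44 (adjusted p = 5.77e-05) in the 5 libraries and 0.59 (adjusted p = 0.0343) in all 6. The rest of that list, *Calcr*, *Dcstamp*, *Ocstamp* and *Mmp9*, lay below 1 CPM in every library. The part of any of these cell types in the members' changes was not tested.

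**Figure D5:**
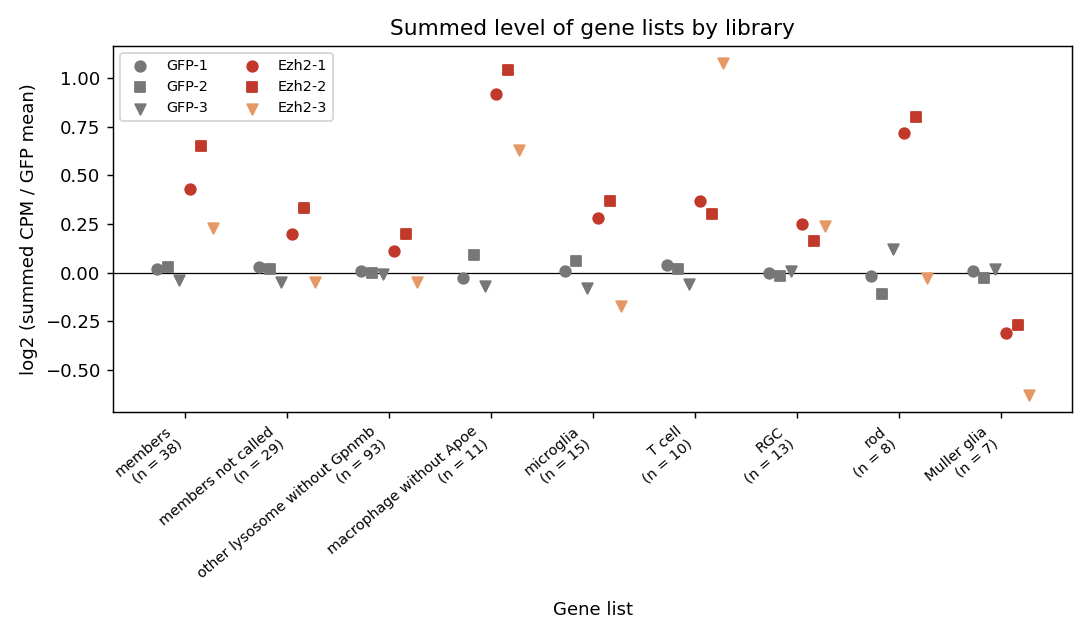
Log2 ratio of the summed CPM of gene lists to the mean of the 3 GFP libraries (y axis) in each library (points) for the members, the members not called, other lysosome genes without *Gpnmb* and markers of 6 cell types (x axis, with the number of genes). Members stand at 0.43, 0.65 and 0.23 in Ezh2 replicates 1 to 3 and macrophage markers without *Apoe* at 0.92, 1.04 and 0.63, while Müller glia markers stand at -0.31, -0.27 and -0.63. Cone markers, not drawn, stand at 1.21, 1.01 and 0.42.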

How the data were processed

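RNA was isolated with the PicoPure kit and made into stranded total RNA libraries, per the labels. The authors deposited a table of raw counts by Ensembl identifier with a column for each of 6 libraries, and 0 columns were left without a sample. The submitters' processing notes name STAR 2.7.0d and build GRCm38. The counting program, annotation release and use of strand are not given in the sources used here, so the 10 members with antisense overlap and the 3 with same-strand overlap are uncertain to that extent. Symbols and coordinates came from GENCODE M21 (55480 of 55573 identifiers matched), and promoter windows from RefSeq (GRCm38.p6).

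GFP replicates 1 to 3 were compared with Ezh2 replicates 1 and 2. The study left 1 Ezh2 library out, and that it was replicate 3 is inferred from its heatmap columns. After filterByExpr and TMM scaling, counts entered edgeR 4.0.16 (R 4.3.3, robust quasi-likelihood F test, two-sided). The model held the group alone, and p values were adjusted by Benjamini-Hochberg over all tested genes. SE were taken from the F statistic, and CPM used library totals. The fit was tested on simulated counts. Alternatives comprised all 6 libraries, omission of each library, a block for the replicate number, the Wald test of DESeq2 1.42.0, limma-voom (limma 3.58.1), RLE factors, library totals, no filter and a mean count of at least 50. A fit without robust moderation was chosen after seeing the data. Members, lists and tests were chosen with earlier results of these data known. Values by library are given for members called in either fit, for those at an adjusted p under 0.05 in the 5 libraries with a log2 fold change beyond 0.3, and for *Tfeb*, *Tfe3* and *Mitf*. Of the other lysosome genes, those called in the 5 libraries are named. Pictures were drawn with matplotlib 3.10.9.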

Additional observations from a re-analysis of the deposited data

Results flagged for a closer look

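In Ezh2 replicate 3, which lay outside the 5-library comparison, 19 of the 38 members exceeded all 3 GFP libraries, among them all 9 members called higher. A further 16 members lay below the GFP libraries and 3 within their range. Replicate 3 stood apart from its group, and the same counts over all tested genes were not made. These numbers therefore describe the members only.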

How the results depend on the processing

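Over 20 alternatives the 38 members gave 758 values, of which 725 kept their direction and stayed called or not called (adjusted p and fold change together), 20 lost a call and 13 changed sign. At the adjusted p alone, 14 of the 24 members that were higher in the 5 libraries also passed in all 6. Those that changed sign belong to members not called. The log2 fold change of *Atp6ap1* was -0.034 in all 6 libraries and -0.036 with a replicate block in all 6. With 1 library left out it was -0.090 to 0.072 for *Atp6ap1*, -0.14 to 0.032 for *Atp6v1h*, -0.25 to 0.040 for *Ctsl*, -0.074 to 0.25 for *Lamp2* and -0.17 to 0.070 for *Ppt1*.

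The number of libraries moved most counts. All 6 libraries gave 14 members higher at the adjusted p alone, 16 members without overlap and higher, 16 other lysosome genes higher and 1 lower at the adjusted p alone, and over all genes 320 called higher and 608 higher and 533 lower at the adjusted p alone, beside 511, 2050 and 1555 in the 5 libraries. With the replicate number as a block in all 6, 12 members were higher and 0 lower at the adjusted p alone, 11 other lysosome genes were higher and 1 lower, and over all genes 275 were called higher, 121 lower, and 401 were higher and 231 lower at the adjusted p alone. With the block in the 5 libraries 9 members were called. Libraries of the same number did not deviate together (correlations of -0.00506, -0.0197 and -0.0102), so the numbers are not taken as pairing. No other alternative that kept all libraries moved any of these counts by more than 1.5 times.

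Where 1 library was left out of the 5 or the 6, members called higher numbered 4 to 9, members at the adjusted p alone 4 to 27 higher and 0 to 1 lower, members without overlap 16 to 31 higher and 2 to 6 lower, and their median log2 fold change was 0.22 to 0.45. Other lysosome genes called numbered 2 to 11 higher and 0 to 1 lower, and at the adjusted p alone 4 to 41 higher and 0 to 5 lower. Over all genes 73 to 541 were called higher and 37 to 296 lower, and at the adjusted p alone 74 to 1826 were higher and 38 to 1334 lower. The low ends came from the 6 libraries. Members without overlap were not set beside all tested genes in these smaller sets, so those counts describe the members only. The log2 fold change of *Ezh2* was 1.05 to 1.56, and its edgeR adjusted p missed the threshold in the 6 libraries without GFP replicate 1, 2 or 3 (0.0793, 0.0616 and 0.0877). Genes under 3 counts per library could not be compared at this depth. DESeq2 gave no adjusted p for *Atp6v0d2*, whose mean count also lay under 50.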
